A study of Mus musculus with 9 samples.

Results

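Lactate and pyruvate handling in the heart was followed through 7 genes among the 13795 gene symbols of the deposited table. They were the L-lactate dehydrogenase subunits Ldha and Ldhb, the D-lactate dehydrogenase Ldhd, the monocarboxylate transporters Slc16a1 and Slc16a3, and both subunits of the mitochondrial pyruvate carrier, Mpc1 and Mpc2. All 7 were found by symbol, and all 7 had a mean normalized count of at least 10 and entered the fit. The genes were chosen by name, with the measured differences between oxaliplatin and vehicle in these same samples already known. Their differences between the groups are therefore a description, and none is offered as a test of the group of genes.

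Heart samples of C57BL/6 mice were compared by RNA sequencing, 4 from the vehicle group and 5 from the oxaliplatin group. Treated animals were on 10 mg/kg of oxaliplatin, a platinum-based chemotherapy. The treatment lasted 8 weeks, and samples entered sequencing with an RNA integrity above 8. The labels do not tell the age, sex or dosing schedule, nor whether the samples of a group are separate animals, so p-values reflect only variation among the 9 libraries, part of which may be technical. The study links the cardiac toxicity of the drug to energy metabolism, which is the setting of the 7 genes. All 12 cardiomyocyte markers examined, such as Myh6 and Tnnt2, were above 0 in every sample.

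Lactate dehydrogenase interconverts lactate and pyruvate as a tetramer of A and B subunits. The B subunit, encoded by Ldhb, is the heart type and is known for serving lactate oxidation, and the A subunit, encoded by Ldha, is the muscle type and dominates in glycolytic tissue. MCT1, encoded by Slc16a1, moves lactate in both directions across the plasma membrane, while MCT4, encoded by Slc16a3, is best known as a lactate exporter of glycolytic cells. Pyruvate made in the cytosol enters mitochondria through a carrier built from Mpc1 and Mpc2. D-lactate, formed from methylglyoxal by Glo1 and Hagh, is oxidised in mitochondria by the flavoprotein Ldhd.

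The promoters of 4 of these genes are shown because 3 of them, Ldha, Slc16a3 and Ldhd, were the members whose groups did not overlap, and Ldhb is the partner subunit of Ldha. The sequences are from RefSeq on GRCm38.p6, lie within the 250 bases upstream of an annotated start, run 5′ to 3′ on the gene's strand, and leave out bases in exons of GENCODE M21. The windows of Ldha and Slc16a3 lie inside the annotated gene, outside the exons as printed, and that of Ldhb lies upstream of the gene. Motifs were counted over the full 250 bases, in 9 windows, since Ldha and Mpc1 have a further start each. Capitals mark matches on either strand to ACGTG or GCGTG, the core of the hypoxia response element, or to CACGTG, the E-box read by Myc and Max, which overlaps ACGTG. The windows lie at chr7:46845554-46845803 (plus strand) for Ldha, chr11:120948817-120949052 (plus strand) for Slc16a3, chr8:111630375-111630586 (minus strand) for Ldhd and chr6:142507958-142508207 (minus strand) for Ldhb.
Ldha: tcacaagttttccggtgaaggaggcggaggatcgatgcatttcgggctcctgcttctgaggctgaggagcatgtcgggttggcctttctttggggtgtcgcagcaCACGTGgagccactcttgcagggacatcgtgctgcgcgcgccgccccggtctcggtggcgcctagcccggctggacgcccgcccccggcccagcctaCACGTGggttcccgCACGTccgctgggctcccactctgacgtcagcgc
Slc16a3: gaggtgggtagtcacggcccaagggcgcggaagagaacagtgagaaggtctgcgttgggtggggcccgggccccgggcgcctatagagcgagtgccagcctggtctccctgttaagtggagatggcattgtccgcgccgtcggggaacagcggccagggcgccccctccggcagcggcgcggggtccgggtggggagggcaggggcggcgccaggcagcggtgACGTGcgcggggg
Ldhd: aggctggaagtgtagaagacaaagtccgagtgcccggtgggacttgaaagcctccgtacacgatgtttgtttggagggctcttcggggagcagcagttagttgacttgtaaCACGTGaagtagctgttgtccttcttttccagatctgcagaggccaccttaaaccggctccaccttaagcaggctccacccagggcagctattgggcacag
Ldhb: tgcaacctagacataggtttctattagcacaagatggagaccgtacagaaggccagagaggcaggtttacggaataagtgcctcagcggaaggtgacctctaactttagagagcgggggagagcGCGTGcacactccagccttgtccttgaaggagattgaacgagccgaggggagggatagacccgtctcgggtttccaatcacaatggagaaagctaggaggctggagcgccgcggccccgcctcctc

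Matches to ACGTG lay in the windows of Ldha, Slc16a3, Ldhd and Slc16a1, which are 4 of the 9 windows of the 7 genes, against 16.6% of 32851 windows of the same length over all genes. The E-box CACGTG lay in 3 of the 9, those of Ldha, Ldhd and Slc16a1, against 6.02% of all windows. A match to ACGTG in Slc16a3 at 27 bases before the start is printed above, and another at 14 falls in the exon bases left out. In Ldha the E-box occurred at 145 and 48 bases before the start, in Ldhd at 139 and in Slc16a1 at 200. The 9 windows held 9 to 37 CG dinucleotides each, against a median of 6 over all windows, and the hypoxia response and E-box motifs contain CG. Among the 13248 windows with at least 9 CG, a limit set after the values were seen, the shares were 24.2% for ACGTG, 9.22% for CACGTG and 51.9% for GCGTG. In the 9 windows themselves GCGTG lay in 5, against 28.2% of all, including that of Ldhb at 126 bases before the start. AAGGTCA, a half-site of nuclear receptors such as ERR, lay in 0 of the 9 windows, against 4.08% of all. The letters ACGTG thus occurred beside genes that were higher (Ldha, Slc16a3), lower (Ldhd) and not called (Slc16a1). A match is a description of the sequence, not of binding.

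Ldha was higher in oxaliplatin hearts. It measured 28525, 31649, 32060.1 and 27192 normalized counts in vehicle samples 1 to 4, and 87550.4, 33945, 51234, 57098 and 80583 in oxaliplatin samples 1 to 5. Each oxaliplatin sample lay above every vehicle sample, with oxaliplatin 2 nearest to them. The group means were 29856 ± 2376.5 and 62082 ± 21938 normalized counts (SD, n = 4 and n = 5), a 2.08-fold ratio of means and a log2 difference of 0.98 with a standard error of 0.23. The highest oxaliplatin sample had 2.58 times the lowest, against 1.18 times among vehicle samples. Ldha lies on chromosome 7 from 46841475 to 46855627 (GENCODE M21 on GRCm38), on the plus strand. In heart tissue, a change in the share of a cell type and a change in RNA per cell cannot be told apart.

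Slc16a3, the lactate exporter MCT4, was scarce in vehicle hearts and higher with oxaliplatin. Vehicle samples held 41.8, 34.6, 36.6 and 55.6 normalized counts, and oxaliplatin samples held 148, 56.7, 126, 163 and 196. The groups did not overlap, but vehicle 4 and oxaliplatin 2 were close: an estimated 55 and 64 reads lay behind them, with 95% Poisson intervals, exact and covering counting error only, of 41.4 to 71.6 and 49.3 to 81.7. The means were 42.2 ± 9.48 and 138 ± 52.2 normalized counts, a 3.28-fold ratio, and the log2 difference was 1.60 with a standard error of 0.32. Slc16a3 lies on chromosome 11 from 120948480 to 120960868.

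Ldhd, the mitochondrial D-lactate dehydrogenase, was lower. Its vehicle values were 1603, 1789, 1710.3 and 1678 normalized counts, and its oxaliplatin values were 775, 899, 794, 718 and 667. Both groups were narrow and far apart, and its highest oxaliplatin value was that of sample 2. The means were 1695 ± 76.9 and 770.4 ± 87.4 normalized counts, a ratio of 0.455, and the log2 difference was -1.14 with a standard error of 0.11. Ldhd lies on chromosome 8 from 111623785 to 111630374 on the minus strand. There 2246 bases of its annotated exons are also exons of Znrf1 on the other strand, while its principal transcript has 2273 bases. Reads of both genes may therefore not be told apart over the shared bases. These were counted over the exons of all annotated transcripts, and how many lie in the principal transcript was not determined. Znrf1 itself measured 393 ± 129 normalized counts in vehicle and 361 ± 39.6 in oxaliplatin samples.

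Ldhb, the heart-type subunit, was lower in 4 of 5 oxaliplatin samples. Vehicle samples held 119138, 136012, 139496 and 114037 normalized counts, and oxaliplatin samples held 131878, 81494.5, 84085, 79760.2 and 98422. Oxaliplatin 1 lay inside the vehicle range and the other 4 below it. The means were 127171 ± 12478 and 95128 ± 21825 normalized counts, and the log2 difference of -0.44 (standard error 0.17) was not called. Without oxaliplatin 1 it was -0.57 and was called lower, but it was not called without any other single sample. Over 22 other settings of the fit it ran from -0.57 to -0.18 and was called in 4.

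Slc16a1, the transporter MCT1, overlapped fully between the groups. Vehicle samples held 2209, 2368, 3174 and 3355 normalized counts, and oxaliplatin samples held 2514, 2673, 2795, 3033 and 3294, all within the vehicle range. Its log2 difference was 0.06 with a standard error of 0.14.

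Mpc1 held 35711, 41745, 43683 and 23328 normalized counts in vehicle and 50881, 28119, 28811, 24603 and 38533 in oxaliplatin samples. Its groups overlapped, with vehicle 4 the lowest of all and oxaliplatin 1 the highest (log2 difference -0.09, standard error 0.23). Mpc2 held 12690.3, 14885, 17041 and 10634 normalized counts in vehicle and 15025.5, 8381, 9484, 7245 and 13849 in oxaliplatin samples. Of the latter, 3 lay below every vehicle sample and the other 2 within the vehicle range (log2 difference -0.39, standard error 0.22). Neither subunit of the pyruvate carrier was called. Exons of Mpc1 share 480 bases with 4930506C21Rik on the other strand, which measured 41.1 normalized counts on average in vehicle samples.

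**Figure D1:**
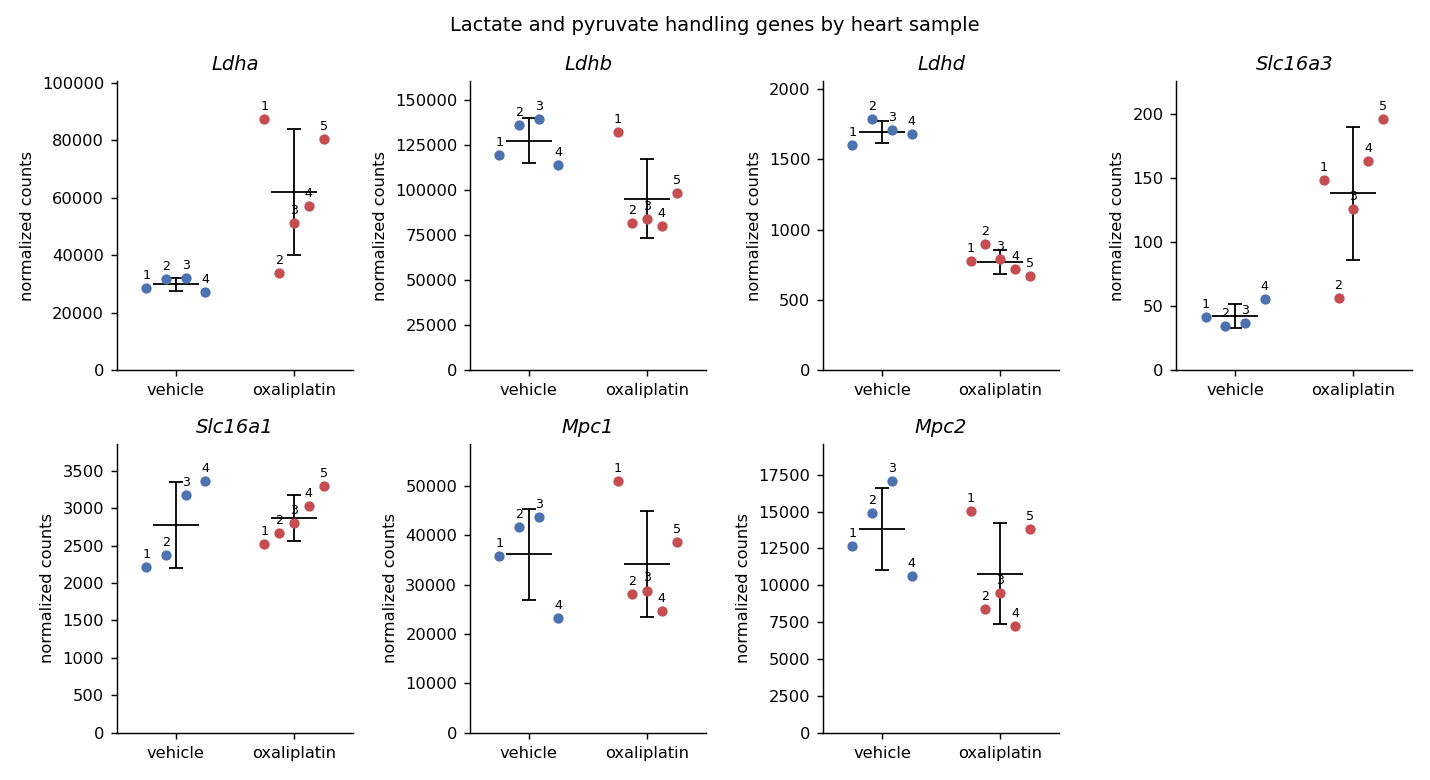
Normalized counts (vertical axes, linear from 0) of the 7 genes in 4 vehicle (blue) and 5 oxaliplatin (red) heart samples, numbered by replicate, with the group mean and SD in black. Ldha and Slc16a3 lie higher and Ldhd lower in all 5 oxaliplatin samples than in any vehicle sample, while the other 4 genes overlap.

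Across all genes, limma called 1272 of 13788 higher and 694 lower at an adjusted p under 0.05, which is 9.23% and 5.03%. Higher genes made up 64.7% of the calls, and 54.4% after quantile normalization, 85.9% after scaling to the same total and 76.7% after scaling to the total without mitochondrially encoded and globin genes. Of the 7 genes, 2 were called higher (Ldha and Slc16a3) and 1 lower (Ldhd). Every oxaliplatin sample lay above every vehicle sample for 8.99% of all genes and below for 5.93%, and for the same 2 and 1 of the 7. Nothing is read from these shares, since the genes were chosen with the comparison known. The median log2 difference of the 7 was -0.09, against -0.02 over all genes.

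Taken within each sample, the balance of the L-lactate dehydrogenase subunits differed between the groups without overlap. Ldha made up 15.0%, 14.7%, 14.5% and 15.0% of the summed Ldha and Ldhb level per kilobase of transcript in vehicle samples 1 to 4. In oxaliplatin samples 1 to 5 it made up 32.9%, 23.5%, 31.0%, 34.6% and 37.7%. The vehicle samples differed by less than 1 percentage point, and the oxaliplatin sample of lowest Ldha, sample 2, still stood apart from them. The means were 14.8% ± 0.247 and 31.9% ± 5.30 (SD, n = 4 and n = 5). Any factor that scales a whole sample cancels in this share. The level depends on the transcript lengths used, 1766 bases for Ldha and 1304 for Ldhb, and without them, a choice made after seeing the data, the means were 19.0% and 38.8%. The summed level of both subunits overlapped between groups, at 102849 to 125130 normalized counts per kilobase in vehicle and 81717 to 150709 in oxaliplatin samples.

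**Figure D2:**
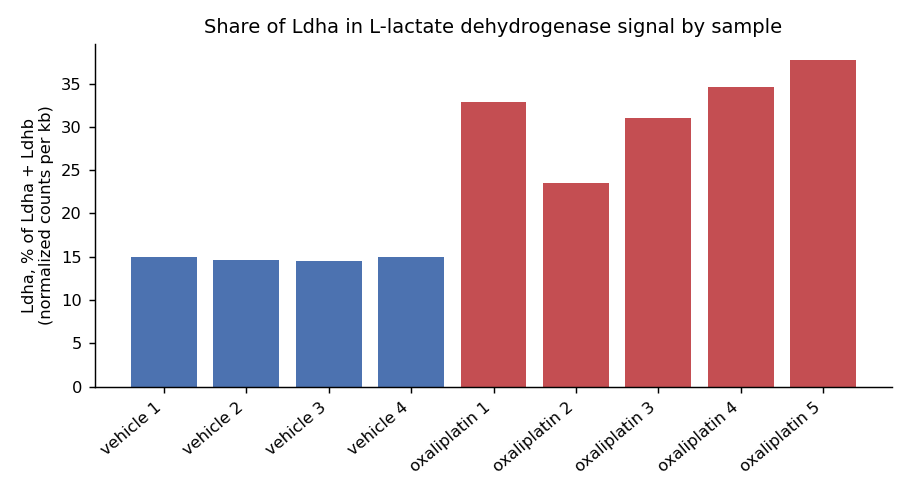
Share of Ldha in the summed Ldha and Ldhb level (percent of normalized counts per kilobase, vertical axis from 0) in each of 4 vehicle (blue) and 5 oxaliplatin (red) samples. Vehicle bars stand between 14.5% and 15.0%, and oxaliplatin bars between 23.5% and 37.7%.

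Levels between genes were compared per kilobase of the longest principal transcript of GENCODE M21. In vehicle hearts the order was Ldhb (97524 ± 9569 normalized counts per kilobase), Mpc1 (37700.1 ± 9579), Ldha (16906 ± 1346), Mpc2 (13476 ± 2697), Ldhd (746 ± 33.9), Slc16a1 (627 ± 129) and Slc16a3 (9.73 ± 2.19). The neighbours Ldha and Mpc2 overlapped in this order, as did Ldhd and Slc16a1, and the other neighbours did not. In oxaliplatin hearts Mpc1 (35688 ± 11135) and Ldha (35154 ± 12423) had like levels with overlapping samples. There Ldhd (339 ± 38.5) lay below Slc16a1 (647 ± 69.3) in every sample, and Slc16a3 stayed the lowest at 31.9 ± 12.0. MCT1 transcripts thus outnumbered MCT4 transcripts per kilobase by 51.7 to 85.0 times in vehicle and by 16.4 to 46.2 times in oxaliplatin samples. The level of Mpc1 over Mpc2 was 2.78 ± 0.311 in vehicle and 3.41 ± 0.292 in oxaliplatin samples, with overlap.

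Samples of one group also differed together. With each sample taken as its deviation from its group mean on the log2 scale, Mpc1 and Mpc2 varied together over the 9 samples (Pearson r = 0.937, Spearman rho = 0.933, exact permutation p = 0.000347 within groups, adjusted p = 0.00243 over 21 pairs of the 7 genes). That p is the smallest the 2880 permutations can give, and r was 0.942 without the 2 samples farthest from the median of Mpc1. Ldhb varied with Mpc1 (r = 0.908, rho = 0.95) and with Mpc2 (r = 0.900, rho = 0.933), each with the same exact permutation p and adjusted p, and r was 0.866 and 0.916 without the 2 farthest samples. Such values are common within these samples: 294 of the other genes tested had a higher r with Mpc1 than Mpc2 had, and 398 had a higher r with Ldhb than Mpc1 had. The permutation p of Ldhb and Mpc1 was 0.0694 after quantile normalization. That of Ldhb and Mpc2 was 0.0542 after scaling to the same total and 0.0556 without the samples of high atrial score. In the latter setting fewer permutations remain, and the smallest p they can give is 0.0278.

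Ldhd and Slc16a3 varied in opposite directions (r = -0.893, rho = -0.850, exact permutation p = 0.00521, adjusted p = 0.0273). This relation rests on oxaliplatin 2 and 5, without which r was -0.588, and it was -0.411 after scaling to the same total per sample (exact permutation p = 0.391) and -0.558 after scaling to the total without mitochondrially encoded and globin genes (exact permutation p = 0.224). The remaining 17 of the 21 pairs had adjusted p of 0.196 or more by the same exact permutation test. Ldha and Slc16a3, both higher with oxaliplatin, had r = 0.740 and rho = 0.367 within groups (exact permutation p = 0.0878, adjusted p = 0.231), and r was 0.339 without oxaliplatin 2 and 1.

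**Figure D3:**
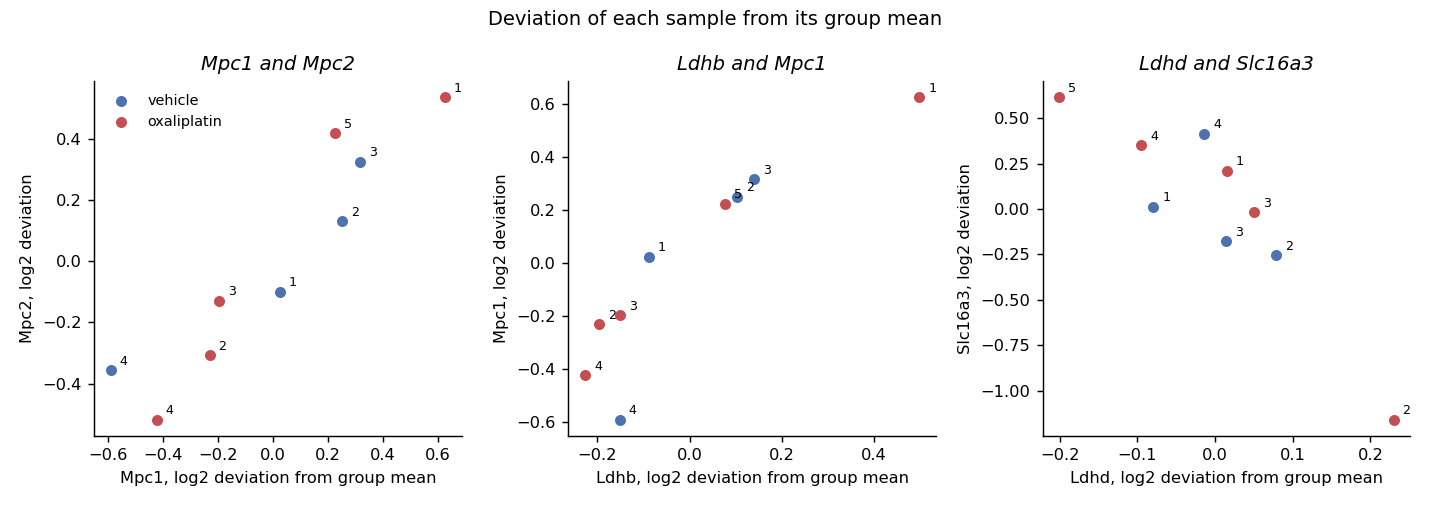
Log2 deviation of each sample from its group mean for 3 pairs of genes, vehicle in blue and oxaliplatin in red, numbered by replicate. Mpc1 rises with Mpc2 and with Ldhb along the samples of both groups (r = 0.937 and 0.908), and Slc16a3 falls as Ldhd rises (r = -0.893, or -0.588 without oxaliplatin 2 and 5).

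Marker genes of other cell types differed between the same samples. The 9 endothelial markers summed to 29130 to 37430 normalized counts in vehicle and 37158 to 76194 in oxaliplatin samples. All 9 had higher means with oxaliplatin, and 2 of the 9, Pecam1 and Fabp4, were called higher. Fabp4 made up much of the sum, with means of 17215 in vehicle and 34649 in oxaliplatin samples. The 12 cardiomyocyte markers summed to 1948100 to 2410120 in vehicle and 1473130 to 2144010 in oxaliplatin samples. All 12 had lower means with oxaliplatin, and Myh6, Myl2 and Fabp3 were called lower (list median log2 difference -0.379). Of 12 erythroid markers 11 were measured, and these summed to 226711 to 577615 and 11663 to 363943 normalized counts. The 7 smooth muscle and pericyte markers summed to 12863 to 19178 normalized counts in vehicle and 19063 to 35088 in oxaliplatin samples. None of the 7 was called (list median log2 difference 0.585, against 0.478 for the endothelial list). All 6 markers of proliferating cells were called higher. Of these lists only that of proliferating cells had a gene at 0 in some sample, Bub1 in vehicle 2 and vehicle 4. The part of any of these in the differences of Ldha, Slc16a3 and Ldhd was not tested. The erythroid marker score was 0.517 to 1.51 in vehicle samples and 1.69 in oxaliplatin 3, against -2.47 to -0.902 in the other oxaliplatin samples. It so nearly followed the groups that a fit with it cannot separate erythroid content from treatment. With the erythroid marker score as a covariate the log2 differences were 1.02 for Ldha, which was not called, 1.87 for Slc16a3 and -1.18 for Ldhd, which were. The standard error of Ldha was 0.33 in that fit, against 0.23 without the covariate.

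Atrial and fat markers differed widely between samples of one group. The 10 atrial markers, of which Bmp10 was at 0 in vehicle 2, vehicle 4 and oxaliplatin 1, summed to 12645 to 390846 normalized counts in vehicle and 27738 to 849957 in oxaliplatin samples. Oxaliplatin 1 had the lowest atrial score, -3.23, and its sum was nearly all Nppa (35514, against 70.5 for Myl7). Vehicle 1, oxaliplatin 2 and oxaliplatin 4 had the highest atrial scores. Without these 3 the log2 differences were 1.24 for Ldha, 1.88 for Slc16a3 and -1.21 for Ldhd, and all were called. Oxaliplatin 2, lowest of its group in Ldha and Slc16a3, also held 651 normalized counts of the brown fat gene Ucp1, against 1.75 in oxaliplatin 3 and a listed 0 in the other samples. The 5 measured of 6 adipocyte markers summed to 1462 to 1884 normalized counts in vehicle and 1609 to 4168 (4167.5) in oxaliplatin samples, with Plin1 at 0 in oxaliplatin 1. In vehicle samples most of that sum was Cidea (1389 to 1733), which was highest in oxaliplatin 1 (2350), where Adipoq was 3.58. Oxaliplatin 2 held 540 of Adipoq and 1045 of Cidec, against 3.58 to 96.7 and 5.97 to 274 in the other samples. Without oxaliplatin 2 the log2 differences were 1.18 for Ldha, 1.89 for Slc16a3 and -1.20 for Ldhd. Within groups, none of 77 relations between the 7 genes and 11 marker scores had an adjusted p under 0.05 by exact permutation. That of Ldha with the endothelial score had r = 0.937 and rho = 0.717 (exact permutation p = 0.0139, adjusted p = 0.134), and r = 0.794 without the 2 farthest samples. That of Ldha with the adipocyte score had r = -0.931 and rho = -0.783 (exact permutation p = 0.00764, adjusted p = 0.118), and r = -0.676 without them. With the endothelial and adipocyte scores Slc16a3 had r of 0.792 and -0.829, and Ldhd -0.672 and 0.683 (exact permutation p = 0.0691 to 0.157). Without their 2 farthest samples these were -0.0727, -0.319, 0.488 and 0.014. With the proliferating score r was 0.774 for Slc16a3 and -0.690 for Ldhd (exact permutation p = 0.049 and 0.122), or 0.223 and -0.018 without those samples. The lowest unadjusted p were those of the fibroblast score, with Mpc1 at r = -0.868 and rho = -0.867 (p = 0.00208), Ldhb at r = -0.927 and rho = -0.867 (p = 0.00243) and Mpc2 at r = -0.912 and rho = -0.900 (p = 0.00313), each at an adjusted p of 0.0803 by exact permutation. Without the 2 farthest samples r was -0.896, -0.801 and -0.853. With the atrial score, Ldhb, Mpc2, Ldha and Mpc1 had r of -0.884, -0.857, -0.813 and -0.715, and rho of -0.800, -0.783, -0.867 and -0.700. Their exact permutation p were 0.00556, 0.0187, 0.0264 and 0.0462, with adjusted p of 0.107 to 0.209. Leaving out the 2 farthest samples gave r of -0.759, -0.710, -0.627 and -0.808. With the cardiomyocyte score these genes had r of 0.858, 0.884, 0.721 and 0.722 (exact permutation p = 0.0101, 0.0132, 0.111 and 0.042). The 9 fibroblast markers summed to 75132 to 108846 in vehicle and 71881 to 160599 in oxaliplatin samples, none at 0. Most of that sum was Gsn, with means of 67581 in vehicle and 67824 in oxaliplatin samples. Col1a1 had means of 1962 and 3839, and Col3a1 of 2102 and 4552. All 9 means were higher with oxaliplatin, but none of the 9 was called (list median log2 difference 0.36).

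Of 63 further genes of the pathway in 5 lists, 51 were tested, of which 5 rose, 6 fell and 40 did not pass in limma. Over all genes 9.23% rose and 5.03% fell, so 5 of 51 is close to the share of all genes that rose. The 6 of 51 that fell are a larger share than that of all genes that fell. Their median log2 difference was -0.01, against -0.02 over all genes. The lists were set with earlier results of these data known, and nothing particular to a list is read from its count.

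Among monocarboxylate transporters and their partners, 2 of 8 tested rose, 0 fell and the other 6 did not pass (list median 0.26), against 9.23% of all genes that rose. Slc16a6, also known as MCT7, rose by 0.67 (limma adjusted p = 0.0272), with groups that did not overlap. Slc16a6 did not pass with the erythroid covariate, without the samples of high atrial score, after quantile normalization, or without vehicle 1, vehicle 2, vehicle 4 or oxaliplatin 4. Bsg, basigin, which carries MCT1 and MCT4 to the cell surface and is named here after its values were seen, held 44408 ± 7075 and 50470.4 ± 19001 normalized counts and did not pass (limma adjusted p = 0.777).

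Around D-lactate, 1 of 6 tested genes fell and 0 rose (list median -0.24), against 5.03% of all genes that fell. Hagh and Glo1, the glyoxalases that make D-lactate and that are named here after their values were seen, did not pass. Hagh had a log2 difference of -0.46 (limma adjusted p = 0.0671) and Glo1 one of -0.13 (limma adjusted p = 0.467). Hagh passed after quantile normalization, after scaling to the total without mitochondrially encoded and globin genes, with array weights, with the atrial covariate and without oxaliplatin 1. Among relatives of L-lactate dehydrogenase, Uevld was the only 1 of 3 tested and did not pass (log2 difference 0.31, limma adjusted p = 0.298).

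Among genes that make pyruvate or use it in mitochondria, 4 of 19 tested fell, 0 rose and 15 did not pass (list median -0.24), against 5.03% and 9.23% of all genes. Pdp2, a phosphatase that switches pyruvate dehydrogenase on, fell from 4039 ± 787 to 1998 ± 686 normalized counts (log2 difference -1.05, standard error 0.21, limma adjusted p = 0.00657). Gpt2, the mitochondrial alanine transaminase that forms alanine from pyruvate, fell from 535 ± 96.6 to 261 ± 65.2 normalized counts (log2 difference -1.05, standard error 0.20, limma adjusted p = 0.00440). It did not pass with the erythroid covariate (log2 difference -0.92, standard error 0.27). Pdp1, the other phosphatase, fell by 0.63 (limma adjusted p = 0.0230). The call of Pdp1 was lost with the erythroid covariate, where its log2 difference was -0.71 with a standard error of 0.23 (0.17 without the covariate), under both scalings to totals, and without vehicle 1, vehicle 2, vehicle 3, oxaliplatin 4 or oxaliplatin 5. Me1, the cytosolic malic enzyme and the last of the 4, fell by 0.43 (limma adjusted p = 0.0328). Named after its values were seen, Me1 lost its call under both scalings to totals, without trend and robust moderation, with the erythroid covariate and without the samples of high atrial score. It also lost it without vehicle 2, 3 or 4 and without oxaliplatin 2, 3 or 4. Pkm, the muscle pyruvate kinase, had a log2 difference of 0.23 and Pdk4, an inhibitor of pyruvate dehydrogenase, one of 0.57 (limma adjusted p = 0.362 and 0.108, both named after their values were seen). Pkm passed after quantile normalization and with the atrial covariate, and Pdk4 without oxaliplatin 1.

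Among regulators of these genes, 3 of 17 tested rose, 1 fell and 13 did not pass (list median 0.14), against 9.23% and 5.03% of all genes. Egln3, a prolyl hydroxylase that marks hypoxia-inducible factors for destruction and is itself one of their targets, measured 412, 374, 711 and 495 normalized counts in vehicle samples and 1417, 747, 1370.0, 905 and 1778 in oxaliplatin samples. Its groups did not overlap (log2 difference 1.29, standard error 0.26, limma adjusted p = 0.00936). Max, the partner of Myc at the E-box, rose by 0.69 (standard error 0.18, limma adjusted p = 0.0254), with overlapping groups. Max did not pass without trend and robust moderation, with the erythroid covariate, or without vehicle 4, oxaliplatin 3 or oxaliplatin 5. Of the PGC-1 coactivators, Ppargc1a rose by 0.45 (limma adjusted p = 0.0187) and Ppargc1b fell by 0.58 (limma adjusted p = 0.0105). Ppargc1a did not pass with the replicate number as a block (limma adjusted p = 0.0772), with the erythroid covariate, without the samples of high atrial score or without vehicle 1. Ppargc1b did not pass with the erythroid covariate or under either scaling to totals. Hif1a had a log2 difference of 0.14 and Myc one of 0.74, and neither passed (limma adjusted p = 0.437 and 0.0666, both named after their values were seen). Myc passed with array weights and without oxaliplatin 2.

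**Figure D4:**
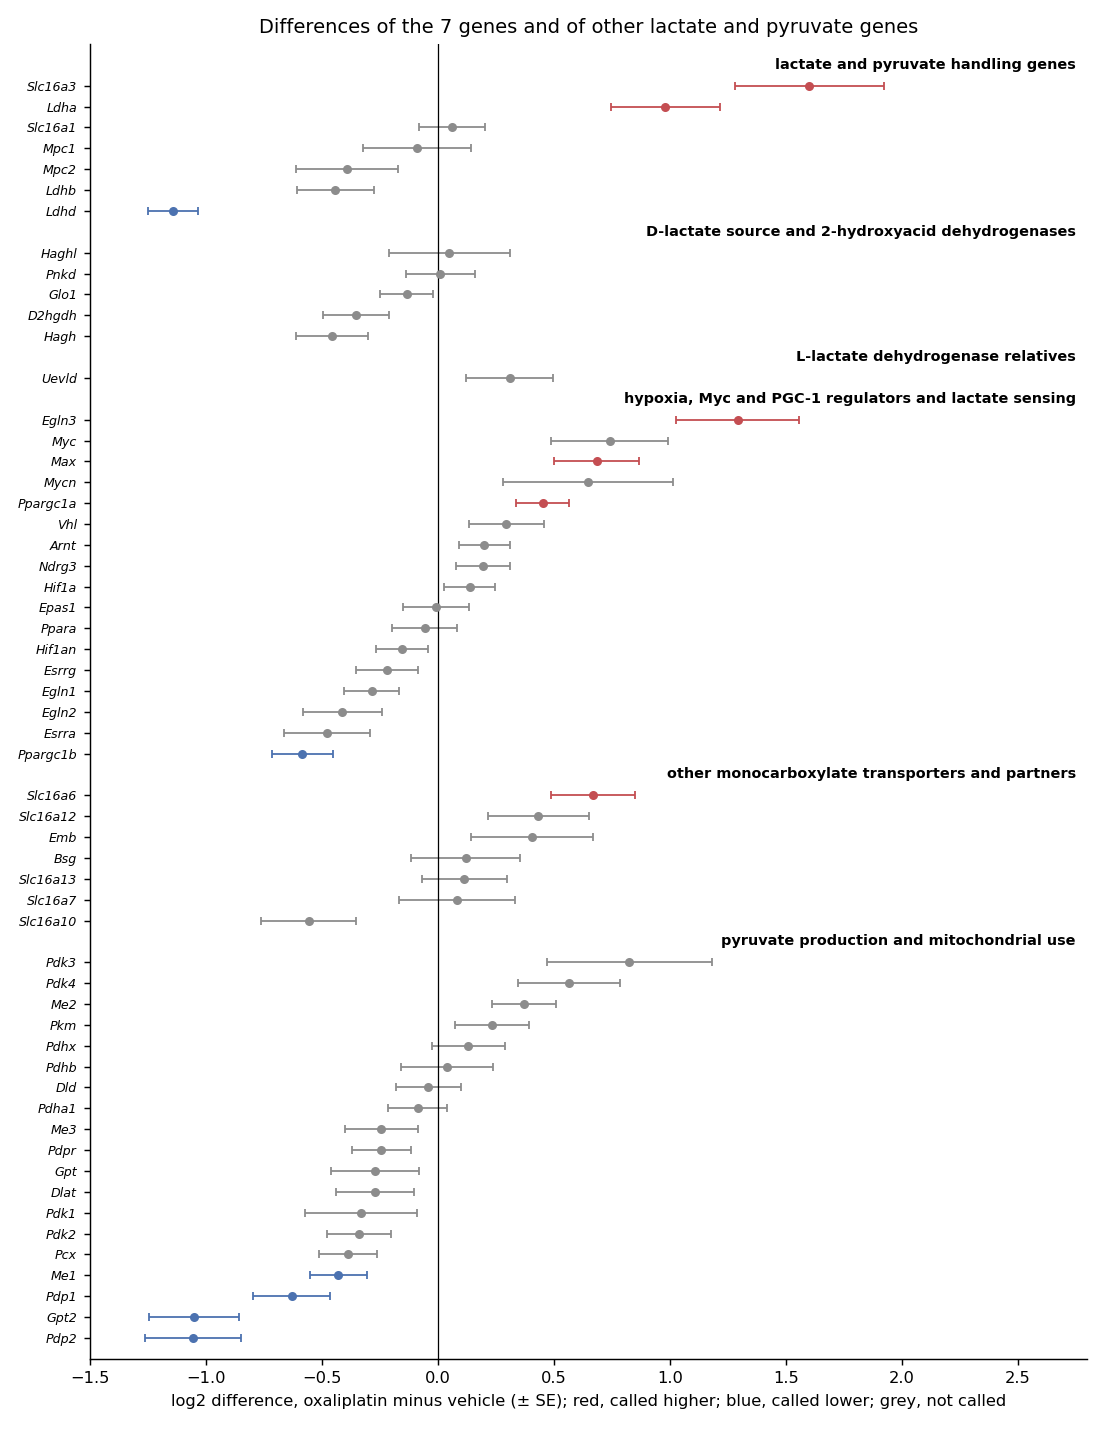
Log2 difference of oxaliplatin minus vehicle (horizontal axis, with its standard error) for the 7 genes and for 49 other tested genes in 5 lists, coloured by the limma call at an adjusted p under 0.05. Slc16a3 lies highest at 1.60 and Ldhd lowest at -1.14 of all genes drawn.

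The genes whose deviations from group means were most like those of Ldha over the 9 samples were Endou (r = 0.991, rho = 0.983), Pfn1, the actin-binding profilin (r = 0.986, rho = 0.933), and Afap1l1 (r = 0.986, rho = 0.917). Those most like Slc16a3 were Dbn1 (r = 0.982, rho = 0.967), Cfl1 (r = 0.970, rho = 0.900) and Cmip (r = 0.969, rho = 0.900), of which Dbn1 and Cfl1 encode the actin-binding proteins drebrin and cofilin. All 3 of these were also called higher with oxaliplatin, with log2 differences of 1.82, 0.71 and 1.65. Those most like Ldhd were Nme4 (r = 0.958, rho = 0.967), Zfp24 (r = 0.957, rho = 0.950) and Naa25 (r = 0.956, rho = 0.967). Of these only Nme4 was called, lower by 0.67, and none of the 3 most like Ldha was called. Without the 2 samples farthest from the median of each member, r ranged from 0.811 for Zfp24 to 0.984 for Endou. They are the highest of 13788 genes by choice, and no p is given for them.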

How the data were processed

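Total RNA of mouse heart was turned into libraries by the Clontech SMARTer method, per the labels' protocols. The values deposited by the authors are a signal, gene counts divided by a factor for each sample, and are normalized gene counts per the file headers. STAR 2.5.1a, Partek and DESeq2 are named in the submitters' processing notes, without role or order. No label or file header used here names the build, the gene models or the use of strand, so antisense genes are uncertain. Rounded totals were 29400000 to 36900000 normalized counts per sample. The step between low values estimated 28500000 to 36200000 reads, but only 73.1% to 75.9% of the lower values came within 0.02 of a whole read, so a log-scale test was used. Every gene reached at least 40.6 in some sample.

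Groups were taken from sample titles. With R 4.3.3, limma 3.58.1 (moderation with trend and robust settings) compared log2(normalized count + 1) over 13788 genes with a mean of at least 10. Tests were two-sided with Benjamini-Hochberg adjustment over all genes, a gene was called at an adjusted p under 0.05, and the steps were tested on simulated data. Differences on this scale understate low genes. Marker scores are means of centred log2 values. Alternatives changed pseudocount, filter, scaling, limma settings, covariates, block and samples. The share of Ldha without lengths was added after seeing the data. The members, lists and tests were chosen with earlier results of these data known. All 7 genes were named, with up to 3 risers and 3 fallers per list (or the 2 most abundant where none passed) and the 3 genes most like Ldha, Slc16a3 and Ldhd, without predicted models. The values of 2 list genes that passed are not reported here and are not drawn; they stay in the counts.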

Additional observations from a re-analysis of the deposited data

How the results depend on the processing

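Over the 22 other settings run, Ldhd was called lower in all 22, with log2 differences of -1.21 to -1.01. Slc16a3 was called higher in all 21 that tested it, at 1.43 to 1.89. Ldha was higher in all 22, at 0.84 to 1.24, and lost its call in 1, the erythroid covariate. Ldhb ran from -0.57 to -0.18 and was called in 4, and Mpc2 from -0.54 to -0.15 and was called in 1. Mpc1 (-0.33 to 0.14) and Slc16a1 (-0.04 to 0.19) were never called and changed sign. Scaling to the same total moved the median log2 difference of all genes from -0.02 to 0.11.

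Called genes higher and lower numbered 1975 and 1566 with array weights and 752 and 234 with the erythroid covariate. Lower genes numbered 269 with the same total per sample and 411 with the total without mitochondrially encoded and globin genes. Leaving out each sample gave 789 to 1508 higher and 321 to 880 lower, with 789 higher and 321 lower without vehicle 3, 373 lower without vehicle 2 and 397 lower without oxaliplatin 4. Of the 7 genes, 1 was called higher with a mean of at least 100, which removes Slc16a3 from the test, and 1 with the erythroid covariate. The number called lower was 2 with the total without mitochondrially encoded and globin genes, 3 with array weights, 2 with the atrial covariate and 1 to 2 on leaving out each sample, with Ldhb added without oxaliplatin 1. Of the other pathway genes, 2 rose and 2 fell with the erythroid covariate, 3 rose without the samples of high atrial score and 3 to 6 on leaving out each sample (3 without vehicle 1 or vehicle 4), while 10 fell after quantile normalization, 3 with the same total and 12 with array weights. Where no cause is named, the cause was not tested.

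Replicate numbers share only a number. Deviations of same-numbered samples correlated at -0.273, -0.0636, -0.0935 and 0.250, and 1 of 4 vehicle samples correlated best with its own number. With the replicate number as a block, which takes oxaliplatin 5 out of the difference, 925 genes were called higher and 488 lower, among them the same 3 of the 7: Ldha at 0.87, Slc16a3 at 1.45 and Ldhd at -1.09. At the depth of the vehicle samples, Slc16a3 rests on an estimated 31 to 55 reads.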
